A study of Drosophila melanogaster with 2 samples.

Results

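The genes described here are 35 factors of ribosome biogenesis and of the nuclear RNA exosome, out of 13945 protein-coding genes. They were chosen by name from a list, with earlier results of these data known, and all were found by symbol in the fly annotation. The study mapped where a Mnt-eGFP fusion protein, with the tag at the C-terminus of Mnt, was found along the genome in Drosophila melanogaster, using whole females at the adult stage (strain Mnt-GFP, age not known). Chromatin immunoprecipitation with an antibody against GFP was followed by sequencing, in 1 group of 2 biological replicates of the same transgenic line. The antibody field of the labels names Mnt itself, and whether the line keeps its own untagged Mnt is not stated. There was no second genotype or treatment, so no comparison between groups could be made, and whole flies give the sum over all their tissues.

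Mnt is the repressor of the fly Myc network. It pairs with Max on the DNA site CACGTG, the E-box that Myc-Max dimers also bind. Ribosome biogenesis is the classic target programme of Myc: small nucleolar ribonucleoproteins (snoRNPs) modify the ribosomal RNA precursor, helicases, GTPases and scaffold proteins assemble it with ribosomal proteins into the small and large subunits, and kinases and export adaptors complete them. The RNA exosome is a barrel of ring and cap proteins with attached nucleases. In the nucleus it trims the precursors of ribosomal and small nucleolar RNA and degrades faulty transcripts.

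For each gene the strongest peak summit within 500 bp of any of its transcription start sites (TSSs) was taken from the reproducible (optimal) list of 7451 peaks, and the gene was called bound when there was one. The signal is the authors' own value for a region and serves here mainly to rank regions within a list. The lists carry no read counts, so depth is unknown and no counting interval can be given. Peaks of the optimal list had signals from 77.1 to 2444. With 2 replicates and 1 group, members were not tested: their counts and medians stand beside the same over all protein-coding genes.

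Mnt-eGFP was found at the starts of 34 of the 35 genes, against 38.1% of all protein-coding genes. Of the 34, 27 had a peak among the 500 strongest, which 4.07% of all protein-coding genes had, and 16 had one among the 100 strongest, which 0.918% of all protein-coding genes had. The median of their strongest signals was 901, against 171 over all 5316 bound protein-coding genes. The E-box CACGTG lay within 100 bp of the strongest summit at 25 of the 34, against 8.54% of all bound genes. The counts were unlike in the 26 biogenesis genes and the 9 exosome genes: 24 of 26 and 3 of 9 ranked among the 500 strongest, and 23 of 26 and 2 of 8 bound genes had the E-box. This difference within the list was not tested.

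The E-boxes of 8 genes are printed as examples of sites 21 to 42 bp downstream of the TSS. They do not show the full spread of positions, which is given below with the upstream sites. The 8 are reference sequences (RefSeq, Release 6, dm6 coordinates), read in the direction of the gene, with CACGTG in capitals.
hoip, 30 bp downstream of the TSS, chr2L:9699809-9699834, plus strand: aacgctaacgCACGTGtttgaaagcg
NHP2, 21 bp downstream, chr3L:14802134-14802159, minus strand: tcacactgaaCACGTGtttcgaacaa
RIOK1, 38 bp downstream, chr3L:11648423-11648448, minus strand: gcattcgcaaCACGTGcgattggttg
pit, 42 bp downstream, chr3R:22035747-22035772, plus strand: tggttagcaaCACGTGcgcgcaatat
Ns1, 24 bp downstream, chr3R:17072638-17072663, minus strand: agactattttCACGTGttcttgtttt
Nmd3, 35 bp downstream, chrX:2184620-2184645, minus strand: cacctatacgCACGTGtttacaaatt
Ski6, 34 bp downstream, chr2L:13222260-13222285, minus strand: aatcccgccgCACGTGtgatatttag
Csl4, 22 bp downstream, chr2L:11123532-11123557, minus strand: cactgcattgCACGTGtgtttccatt
All 8 lie in the 5′ UTR of the gene they are named for. The Csl4 site is the only one of them beyond 100 bp of the summit.

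The 4 proteins of the box C/D snoRNP, which guides methylation of ribosomal RNA, had the strongest peaks as a group. Fib, the methyltransferase fibrillarin, had a signal of 1965 (rank 3 of 7451), with 1399 in replicate 1 and 565 in replicate 2. Nop56, a core scaffold of the particle, had 1764 (rank 7), with 1169 and 596. These were ranks 4 and 5 for Fib and ranks 8 and 3 for Nop56 in the single replicates. The partner scaffold nop5, the fly Nop58, had 1254 (rank 36), with 920 in replicate 1 and 341 in replicate 2. The RNA-binding protein hoip, which binds the kink-turn of box C/D RNAs and also serves the spliceosome, had 939 (rank 103), with 661 and 286. CACGTG was present at all 4 summits. At nop5 it lay 5 bp upstream of the TSS, in an intron of the overlapping gene x16.

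The box H/ACA genes, whose snoRNP turns uridine into pseudouridine, had signals from 822 to 1151. Nopp140, a nucleolar chaperone of snoRNPs, had a signal of 1151 (rank 50), with 837 in replicate 1 and 312 in replicate 2. Nop60B, the pseudouridine synthase (dyskerin in mammals), had 1071 (rank 64), with 719 and 352. NHP2, a structural protein of the particle, had 822 (rank 147), with 594 and 223. Nop60B was the only gene of the 34 with more than 1 E-box within 100 bp of the summit: one was centred on the summit, 11 bp upstream of the TSS, and the other lay 24 bp downstream.

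Factors of the small subunit ranged from 1299 to 152. RIOK2, a kinase of late small subunit maturation, had a signal of 1299 (rank 28), with 918 in replicate 1 and 384 in replicate 2. RIOK1, the related kinase, had 1185 (rank 44), with 806 and 377. The U3 snoRNP component wcd had 477 (rank 443). The KRR1 orthologue dbe, which acts in early processing of the small subunit RNA, had 152 (rank 3350), with 119 in replicate 1 and 41.0 in replicate 2, below the median of all bound genes. The dbe peak, at 211 bp wide, was narrower than the median of 505 bp for the 34, and no CACGTG lay within 5000 bp of its summit.

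All 13 genes of the large subunit were bound, 12 of them among the 500 strongest peaks, and 12 had the E-box. CG13185, the fly midasin, a giant ATPase that strips assembly factors from the precursor, had a signal of 1429 (rank 19), with 877 in replicate 1 and 551 in replicate 2. CG11583, the fly BRX1, had 1427 (rank 20), with 1024 and 401. RpLP0-like, related to the yeast factor Mrt4, had 1405 (rank 22), with 970 and 446. Replicate 1 had CG11583 highest and CG13185 lowest of the 3, and replicate 2 had the opposite order, with CG13185 at rank 6 and CG11583 at rank 28. The DEAD-box helicase pit had 1255 (rank 35), with 881 in replicate 1 and 373 in replicate 2.

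The other large subunit genes lay between 409 and 1090. Nmd3, the adaptor that carries the large subunit out of the nucleus, had 1090. The nucleostemin family of GTPases had 1039 at Ns1, 806 at Ns2 and 973 at Ns3. Surf6 (864), Nnp-1 (809) and Non3 (779), nucleolar factors of large subunit RNA processing, were close to each other. Noc1 (409, rank 594) and Noc3 (595, rank 291), of a family of factors that accompany pre-ribosomes, were the lowest. Noc3 had 421 in replicate 1 and 170 in replicate 2. The remaining nucleolar genes were nclb (476), the fly PWP1, which binds chromatin and regulates ribosomal RNA genes, and vito (456), related to NOL12. At vito the replicates had 323 and 139.

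**Figure D1:**
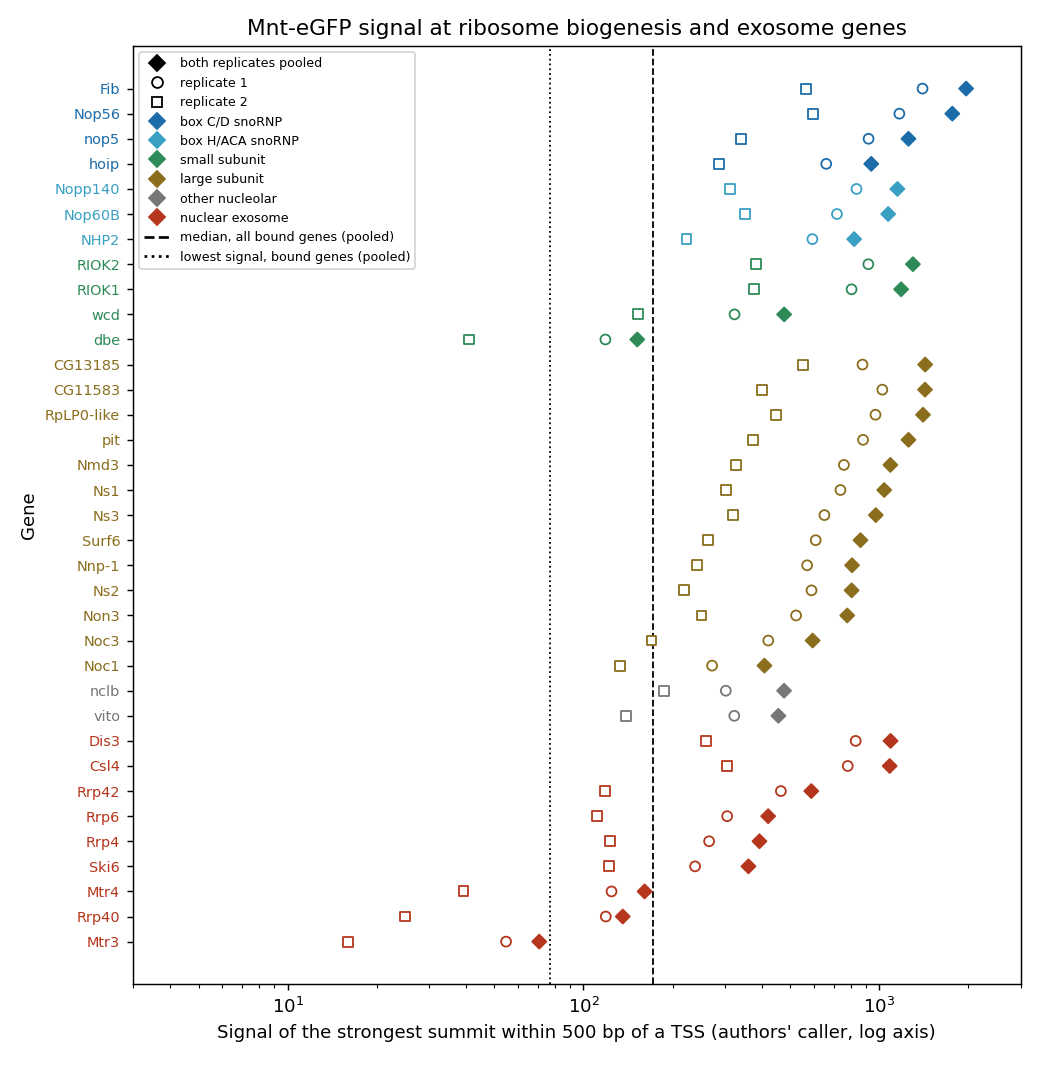
Signal of the strongest summit within 500 bp of a TSS (log axis) for each of the 35 genes, in the pooled list (filled diamonds) and in replicates 1 (circles) and 2 (squares), coloured by role, with no error bars. Fib (1965) and Nop56 (1764) are highest, and Mtr3 (70.9) is the only one with its diamond left of the dotted line (77.1, the lowest signal of a bound gene), while the dashed line is the median of all bound genes (171).

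The exosome genes spread over most of the range of the list. Dis3, the catalytic nuclease, had a signal of 1091 (rank 59), with 832 in replicate 1 and 259 in replicate 2. Csl4, a cap protein, had 1084 (rank 62), with 782 and 306. Both stood among the 100 strongest peaks, and the other 7 genes did not. The ring protein Rrp42 had 589 (rank 296), with 465 in replicate 1 and 118 in replicate 2. Rrp6, the nuclear exonuclease, had 421 (rank 559), with 306 and 111. The cap protein Rrp4 had 393 (rank 643), with 266 and 123. Ski6, a ring protein orthologous to Rrp41, had 361 (rank 752), with 238 and 122. These 4 lay above the median of all bound genes.

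Mtr4, Rrp40 and Mtr3 were the weak end. Mtr4, the helicase that feeds RNA to the nuclear exosome, had a signal of 161 (rank 3077), with 124 in replicate 1 and 39.3 in replicate 2. The cap protein Rrp40 had 136 (rank 3906), with 119 and 24.9. The ring protein Mtr3 was the only gene of the 35 without an optimal summit: its region in the pooled list had a signal of 70.9 and rank 8086, beyond the 7451 of the optimal list. Mtr3 regions ranked 7329 in replicate 1 (54.7) and 11704 in replicate 2 (16.0), with summits 155 and 90 bp downstream of the TSS. In replicate 1 all 35 genes had 1 of the 7451 strongest regions (39% of all protein-coding genes), and in replicate 2 33 did (33.2%). The 2 that did not were Mtr3 and Rrp40, which ranked 7886 there.

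The E-boxes were gathered in a narrow stretch behind the start. At each of the 25 genes the E-box nearest the strongest summit, within 100 bp of it, was taken. Of these 25 sites, 21 lay 1 to 60 bp downstream of the TSS, between 7 bp at RIOK2 and 53 bp at Ns2. An annotated 5′ UTR held 22 of the 25, but at Dis3 it was that of the neighbour Rrp5. The median position of the 25 was 32 bp downstream. The 4 upstream sites were at nop5 (5 bp), Nop60B (11 bp), CG11583 (20 bp) and Dis3 (152 bp). Nop60B also had its second site 24 bp downstream. Counted from the canonical TSS alone, without regard to the summit, 23 of the 35 genes had CACGTG 1 to 100 bp downstream, against 1.96% of all protein-coding genes. Within 100 bp to either side, 25 of the 35 had it, against 2.92%.

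A stretch of this kind was also seen at other genes. Of the 429 other bound genes with CACGTG within 100 bp of the summit, 125 (29.1%) had it 1 to 60 bp downstream of the TSS and 51 (11.9%) 1 to 60 bp upstream. Their most filled interval of 20 bp, like that of the list, was from 20 to 39 bp downstream, with 75 of the 429 and 14 of the 25. The share inside the stretch was 84% in the list. Among the 540 other bound genes that also ranked within the 500 strongest peaks, 36.3% had CACGTG, with a median position of 7.5 bp downstream. These other genes include neighbours that share a summit with a listed gene. The site of the listed gene is then counted again from the neighbour's TSS, as at CG3085 beside Fib, 131 bp upstream. Other pairs of genes sharing a summit also count its site once per gene, so the shares of other genes do not rest on separate sites.

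**Figure D2:**
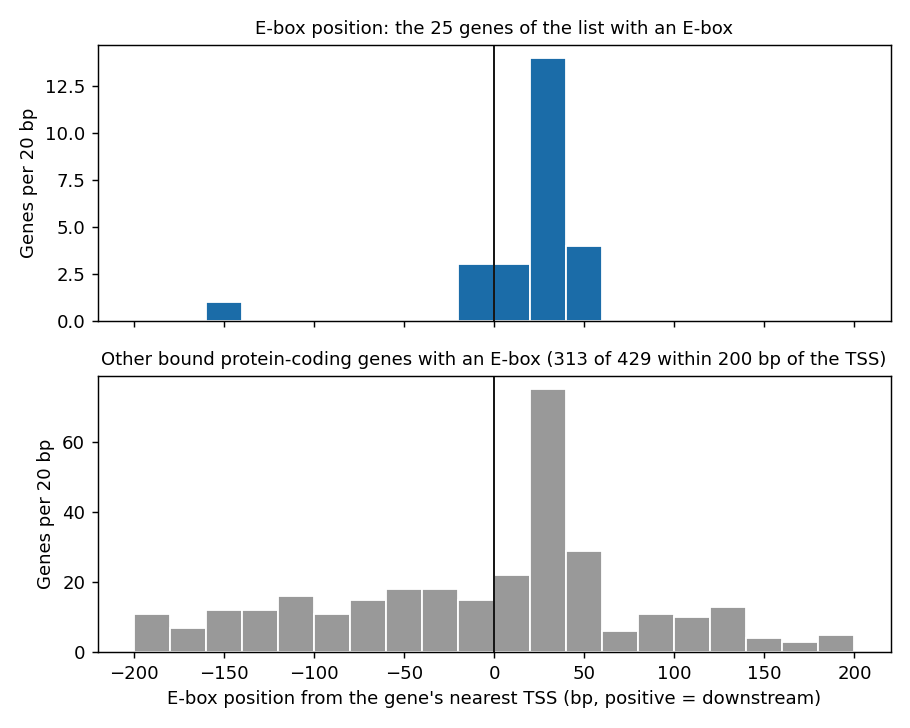
Number of genes per 20 bp interval (bars) against the position of the E-box nearest the summit, in bp from the TSS, for the 25 genes of the list (upper panel) and for the other bound genes (lower panel, 313 of 429 within 200 bp). Both panels are highest at 20 to 39 bp downstream, with 14 and 75 genes.

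Most summits lay just upstream of the TSS, here as at other genes. At the 34 bound genes the summit was at most 101 bp from the TSS, with a median distance of 30 bp, and it was upstream of the TSS at 25 (73.5%, against 70.6% of all bound genes). The median over all bound genes was 48 bp upstream, against 22 bp upstream here. At the 25 genes with an E-box the site was a median of 54 bp downstream of the summit, against 8.5 bp over all bound genes with the site. It was downstream of the summit at 21 (84%, against 55.9%), and it was within 50 bp of the summit at 9 (36%, against 59.9%). Over all bound genes, a site at a summit shared by genes on opposite strands counts once in each direction. At Fib the summit was 34 bp upstream and the E-box 32 bp downstream. Nmd3 had the longest such gap (95 bp), while at Nop60B the site coincided with the summit. Replicate summits lay a median of 3 bp (replicate 1) and 6.5 bp (replicate 2) from the pooled summit, and at most 42 and 31 bp.

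**Figure D3:**
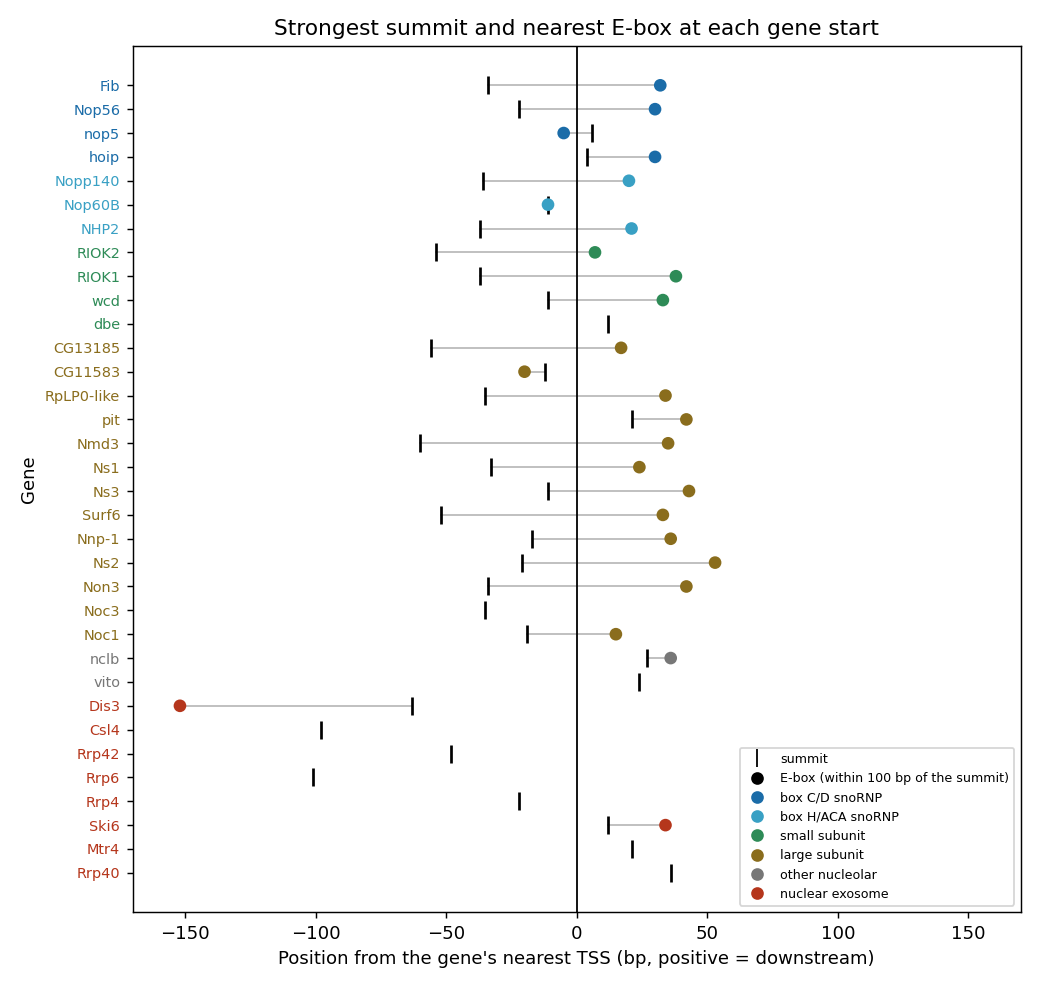
Position in bp from the nearest TSS of each gene (0, vertical line) of the strongest summit (black ticks) and of the nearest E-box within 100 bp of it (dots, coloured by role) at the 34 bound genes. Of the 25 dots, 21 lie 7 to 53 bp downstream of the TSS, mostly with the tick upstream, and 9 genes have no dot.

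Bound genes without CACGTG near the summit were dbe, Noc3, vito and the exosome genes Rrp4, Rrp40, Csl4, Rrp42, Rrp6 and Mtr4. Their median signal was 421, against 1071 for the 25 genes with it. Over all bound genes the medians were 162 and 436. For dbe, Noc3, vito, Rrp42 and the unbound Mtr3 no CACGTG lay within 5000 bp of the summit. The nearest was 438 bp away at Rrp6, 1024 bp at Mtr4, 3532 bp at Rrp40 and 3694 bp at Rrp4. Csl4 differed from these, since its E-box stood 22 bp downstream of the TSS and 120 bp from a summit that itself lay 98 bp upstream.

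The 200 bp around each summit were also searched, on either strand and with overlapping matches allowed, for relatives of the E-box. The motif CACGCG, the motif CATGTG or the motif CATGCG was present at 6 of these 9 genes, and at 4 of the 25 that have the E-box itself. Over all bound genes the shares were 23.3% without and 20.7% with the E-box. The further relative CAGCTG was at Noc3 and Rrp4, and in all at 4 of the 34 bound genes (11.8%), against 17.4% of all bound genes. At dbe, Rrp6 and Csl4 none of these motifs was in the window. CATGTG was found at Noc3 (20 bp downstream of the TSS), Rrp42 (23 bp), vito (24 bp) and Mtr4 (32 bp), and CACGCG at Rrp40 (50 bp downstream) and on both sides of the Rrp4 TSS. CATGTG occurs within 100 bp of the strongest summit at 10.6% of all bound genes and of the TSS at 5.79% of all promoters. For CACGCG the shares are 9.09% and 5.87%, and for CATGCG 6.34% and 5.16%. These matches are descriptions of the reference sequence. The 3 CATGTG sequences below are each read on the strand that carries the site. Positions of CATGTG at other bound genes were not counted, and whether it serves in place of CACGTG was not tested.
Noc3, chr3R:7246936-7246961, minus strand: gttggcgttcCATGTGctcgtcccat
vito, chr3L:5777296-5777321, plus strand: acgttttcaaCATGTGcgagcggcca
Mtr4, chr2L:15752283-15752308, minus strand: cgccgcaaaaCATGTGaaggcccgat
The capitals mark CATGTG. The vito site coincided with the summit, and the sites of Mtr4 and Noc3 were 11 and 55 bp from theirs.

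Many summits lay near the start of a second gene, in a larger share than at bound genes in general, a difference that was not tested. At 25 of the 34 peaks (73.5%) another protein-coding TSS lay within 500 bp of the summit, always on the opposite strand. At 24 (70.6%) the same summit was the strongest of the neighbour as well. Over all bound genes 51.5% had such a TSS, 88.8% of these with all of them on the opposite strand, and 49.4% shared the strongest summit with a neighbour. Examples are mats at Nop56 (71 bp from the summit), GlnRS, the glutaminyl-tRNA synthetase gene, at RIOK2 (69 bp), 14-3-3zeta at RpLP0-like (52 bp) and mRpS11 at Ns1 (24 bp). The summit was nearest to the listed gene at 30 of the 34 (75.2% of all bound genes) and nearer to the neighbour at Nmd3, Non3, Ns1 and Dis3. At Nmd3, Non3 and Ns1 the E-box nonetheless lay in the 5′ UTR of the listed gene and 82 to 93 bp upstream of the neighbour's TSS (CG17776 93 bp, mTerf5 83 bp, mRpS11 82 bp).

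Dis3 was the reverse case. Its E-box lay 152 bp upstream of the Dis3 TSS and 34 bp downstream of the TSS of Rrp5, a factor of ribosomal RNA processing, in the 5′ UTR of Rrp5. Rrp42 shares its summit with Prosbeta1, a proteasome subunit gene, and Csl4 with Nup160, a nucleoporin gene. At Rrp40 the neighbour was Eno, the enolase gene, whose strongest summit was a different one with a signal of 740 against 136. Of the 10 listed genes with no other protein-coding TSS within 500 bp, 9 were bound, against 25.1% of all such genes.

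The 2 replicates placed most of the genes at similar ranks. Of the 34 bound genes, 26 had a region among the 500 strongest of replicate 1 (4.34% of all protein-coding genes), 25 among those of replicate 2 (3.61%) and 24 in both. Median ranks were 120 and 136. The scale of the signal is not stated and may differ between the 2 replicate lists, so a ratio between them has no meaning of its own and is read only against that of other genes. The signal in the list of replicate 1 divided by that of replicate 2 had a median of 2.36 at the 34 genes, against 2.51 over all bound genes with a region in both replicates. The ratio ran from 1.59 at CG13185 and 1.62 at nclb to 3.94 at Rrp42 and 4.78 at Rrp40.

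**Figure D4:**
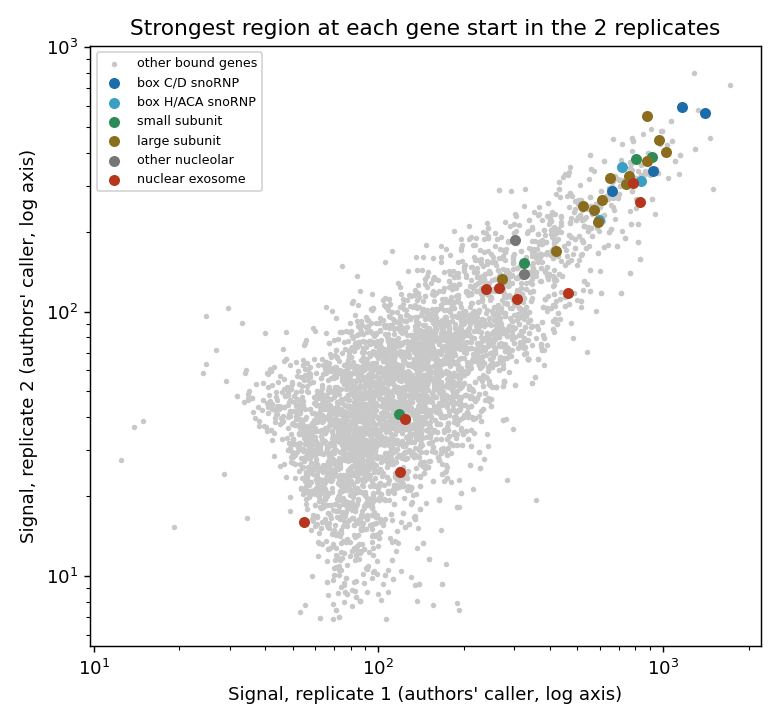
Signal of the strongest region at each gene start in replicate 1 (x axis) and replicate 2 (y axis), both on log axes, for the genes of the list (coloured by role) and the other bound genes (grey). Most genes of the list lie at the upper right, and Mtr3 (54.7 and 16.0), Rrp40, Mtr4 and dbe lie in the grey mass.

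A second summit was listed within 500 bp of a TSS at 11 of the 34 genes, against 25.0% of all bound genes. Of the 12 additional summits, 11 lay 200 to 209 bp from the strongest one, and 8 shared its region. RIOK1 had the strongest of them, with a signal of 639 and rank 242, 246 bp upstream of the TSS. None of the 12 had CACGTG within 100 bp. No distance was below 200 bp, and the caller's settings are not known. Spacing, shared region and CACGTG were not counted for second summits of other genes, so they cannot be read as traits of the list. The pit gene had 3 summits, 1 of them near another of its TSSs with a signal of 147.

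Other genes of the pathway, from a second list of factors, were looked at in the same way. This second list was also chosen with earlier results of these data known, so its counts are no independent check. Of its 52 names, 10 were not found and others were synonyms, which left 39 genes. Summits were called at 38 of them, and 24 ranked among the 500 strongest. All 30 further biogenesis genes were bound, with a median signal of 743, and 17 had CACGTG within 100 bp, of which 15 lay downstream of the TSS. The 4 strongest were l(2)34Fd (1601), Bka (1403), the helicase gene kz (1292) and U3-55K (1233), which encodes a protein of the U3 snoRNP. The E-box lay 264 bp upstream of the TSS at Bka, but 31, 45 and 39 bp downstream at l(2)34Fd, kz and U3-55K. Of the 9 further exosome genes and cofactors, 8 were bound, with a median signal of 200. None of the 8 had CACGTG within 100 bp, which in so few genes is near the 8.54% of all bound genes. Trf4-1, the poly(A) polymerase that tags RNAs for the nuclear exosome, had the strongest of these peaks (976), and its relative Trf4-2 had no region within 500 bp of a TSS in any of the 4 lists.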

How the data were processed

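Chromatin from 2 biological replicates of whole adult female flies was analysed through 4 peak lists on dm6. According to the listing deposited beside each sample's files, the single-replicate lists came from each replicate's alignments with a further file, the pooled list from both, and the optimal list by irreproducible discovery rate. Caller and aligner: not given in the sources used here. The signal and the −log10 q-value of each region are the authors' deposited values. The latter stands at its cap of 4.22 in all 7451 optimal peaks, so the signal ranks them. The single-replicate and pooled lists hold 30000 regions each, weak background included.

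Summits were placed from the deposited start and offset and set against the Ensembl release 115 annotation and the RefSeq Release 6 sequence, whose coordinates are those of dm6. A gene counted as bound with a summit of the optimal list at most 500 bp from one of its TSSs. CACGTG had to lie whole within 100 bp of the summit, and its position is that of its middle. Where annotations overlapped, a 5′ UTR took precedence over the other features. The lists on dm3 and the control libraries were not analysed here. Replicates share 1 line, and their agreement may be partly technical.

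The members and lists were chosen with earlier results of these data known. Values are given for all members, in full for the 10 with the highest signal, the exosome genes and those without CACGTG or an optimal summit. The assignment was tested on simulated summits. Python 3.11.15, numpy 2.4.6, pandas 2.3.3 and matplotlib 3.10.9 were used.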

Additional observations from a re-analysis of the deposited data

How the results depend on the processing

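The count of bound genes was 34 of 35 at 250 bp (34.1% of all protein-coding genes), at 1000 bp (41.5%) and with canonical TSSs only (35.2%). It was 33 in the stronger 3726 peaks (23.8%) and 31 when a summit counted only for its nearest protein-coding TSS (29.6%). With 1 replicate left out it ranged from 33 (without replicate 1, 33.2%) to 35 (without replicate 2, 39%). Among genes with no protein-coding neighbour within 500 bp, a subset picked after seeing the data, it was 9 of 10 (25.1%). The median signal of 901 was the same at 250 bp, at 1000 bp and with canonical TSSs. The count of 25 genes with CACGTG depended on the window. It was 9 within 50 bp of the summit (4.78% of all bound genes) and 26 within 250 bp (13.0%), the median site being 54 bp downstream of its summit. With 1 replicate left out it ranged from 24 to 25. A region was matched in both replicates at all 34 bound genes, by distance to the TSS or by overlap of 1 bp. By distance, 5105 of all 5316 bound protein-coding genes were matched too. The replicate lists include weak background and the optimal peaks were already selected as reproducible, so this match sets the list apart little. No paired analysis was possible because there is 1 group. Depth is unknown, so how far it limits the weak peaks at Mtr3, Rrp40, Mtr4 and dbe was not tested.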

Other observations

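The bases next to the E-box were A or G in most cases. Over the 25 sites, the base just before CACGTG, read on either strand and so counted 50 times, was A in 27 cases, G in 20, C in 2 and T in 1. Over all 454 bound genes with the site the shares were 37.6% A, 37.0% G, 15.2% C and 10.2% T, and those genes include the 25.

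A few of the genes carry small nucleolar RNAs inside them. By annotation, Nop60B holds 7 on its own strand, and Fib, nop5 and pit hold 1 each. Such a host gene is rare, at 0.602% of all protein-coding genes. Their signals were 1071, 1965, 1254 and 1255.

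The DNA replication-related element TATCGATA lay within 100 bp of the summit at 5 of the 34 bound genes (14.7%), against 11.2% of all bound genes, and Motif 1, a core promoter element, at 2 (5.88%), against 5.14%.

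Among protein-coding genes outside the list, 251 had CACGTG 1 to 100 bp downstream of the canonical TSS. Of these 66.5% were bound, and the bound ones had a median signal of 597. With the site 1 to 100 bp upstream instead there were 143 genes. Of these 51.0% were bound, and the bound ones had a median signal of 403. Both groups can include neighbours whose site is also that of a listed gene.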
